A study of Cynara cardunculus with 12 samples.

Results

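In friable callus of cardoon (*Cynara cardunculus*), 5 of 26505 annotated genes had a clear read count in wild type (WT) tissue and almost no reads in any of the 3 lines that overexpress the *Arabidopsis thaliana* transcription factor MYB4 (*AtMYB4oe*). They were chosen by raw read counts alone: at least 30 in each of the 3 WT libraries and at most 3 in each of the 9 line libraries, with 4680 genes in 4 long runs of neighbouring identifiers left out of the search. The genes are *Ccrd_014300*, an uncharacterized protein, *Ccrd_018562*, described as a 1-deoxy-D-xylulose-5-phosphate synthase (DXS), *Ccrd_007085*, described as a leucine-rich repeat-containing protein, and *Ccrd_017344* and *Ccrd_024826*, which carry no description in the sources used here. Since the counts of all 12 samples chose these genes, their difference between WT and lines is a description and has no test. The word silenced would go further than the data, because 4 of the 5 genes kept 1 or more reads in some line library.

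The samples were RNA-seq libraries of WT callus and of lines L1, L18 and L24, with 3 replicates in each of the 4 groups. All cultures came from leaf tissue of the "Spagnolo" genotype. WT callus was in its sub-culture XXII and the lines were in sub-culture XIV. The lines carried *AtMYB4* under the constitutive CaMV35S promoter, L1 and L24 after infection with *Agrobacterium tumefaciens* strain AGL1 and L18 with strain EHA105, and were kept on the selective agent phosphinothricin and the antibiotic cefotaxime. Each line goes back to 1 resistant callus, and the sources name no line carrying an empty vector. The 3 replicates of a group were separate RNA extractions of WT or of a given line, so the spread between replicates is that within a culture. The transgene, the age of the culture, and transformation with its selection all differ between WT and lines and cannot be told apart here. The level of *AtMYB4* itself was not analysed here.

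Callus is a mass of dividing, largely undifferentiated plant cells. In *A. thaliana*, MYB4 is an R2R3-type repressor best known for lowering the expression of phenylpropanoid genes, among them that of cinnamate 4-hydroxylase (C4H). DXS makes 1-deoxy-D-xylulose 5-phosphate, the first product of the plastid pathway to isoprenoids, and plants usually hold several *DXS* genes. Leucine-rich repeats are protein-binding modules found in many plant receptor proteins, whose genes often lie in clusters of similar copies. LRRNT_2, a term in several descriptions below, is the domain that caps such repeats at the N-terminal side.

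Between 12505275 and 19509803 reads per library fell on genes, so that the limit of 3 counts stood for 0.154 to 0.24 CPM (counts scaled to library size) in the line libraries. Replicate libraries differed by more than counting error, and none was a repeat of another. Of the 9 genes described as chlorophyll a-b binding proteins, a mark of green tissue, 5 were lower and 4 higher in L1, 3 lower and 2 higher in L18, and 5 lower and 2 higher in L24. They come from a list of genes changed in L1, so their L1 calls were fixed by that choice. Over all genes tested, 20.4% were lower and 19.3% higher in L1, 12.8% and 12.5% in L18, and 20.7% and 19.3% in L24. The summed normalized count of the 9 was 625 to 879 in WT, 2437 to 2989 in L1, 2383 to 2903 in L18 and 610 to 888 in L24. Of the 9, 3 lie in the runs left out, among them *Ccrd_006280* and *Ccrd_006285*, which carried most of the sum in L1 and L18. The other 6 summed to 547 to 673 in WT, 399 to 542 in L1, 348 to 526 in L18 and 253 to 428 in L24. Another mark of green tissue, *Ccrd_021639*, is described as a ribulose bisphosphate carboxylase small chain. It had 2, 0 and 0 counts in WT, 12, 4 and 28 in L1, 1, 1 and 1 in L18, and 4, 5 and 7 in L24. Its log2 fold change was 4.17 in L1, where it was called higher, and it was not called in L18 or L24. By the paper's methods WT callus was grown in the dark. The part of green tissue in the results below was not tested. In bulk RNA, fewer cells of a type and less RNA per cell cannot be told apart, and this holds for every gene described here.

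Outside the runs left out, 12999 genes reached 30 counts in every WT library. Of these, 22 stayed at or under 3 counts in every L1 library, 15 in every L18 library and 51 in every L24 library. The 5 genes that did so in all lines were 0.0385% of the 12999. No gene inside the runs left out met both limits. All 5 passed the filter on low counts, and edgeR's quasi-likelihood test called each of them lower in L1, L18 and L24 at an adjusted p of 0.05 or less, which the choice of the genes fixes. Of the 20024 genes tested, L1 had 39.7% called in either direction, 20.4% lower and 19.3% higher. L18 had 25.3% called, 12.8% lower and 12.5% higher, and L24 had 39.9% called, 20.7% lower and 19.3% higher. The share called lower in all lines was 6.27%.

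**Figure D1:**
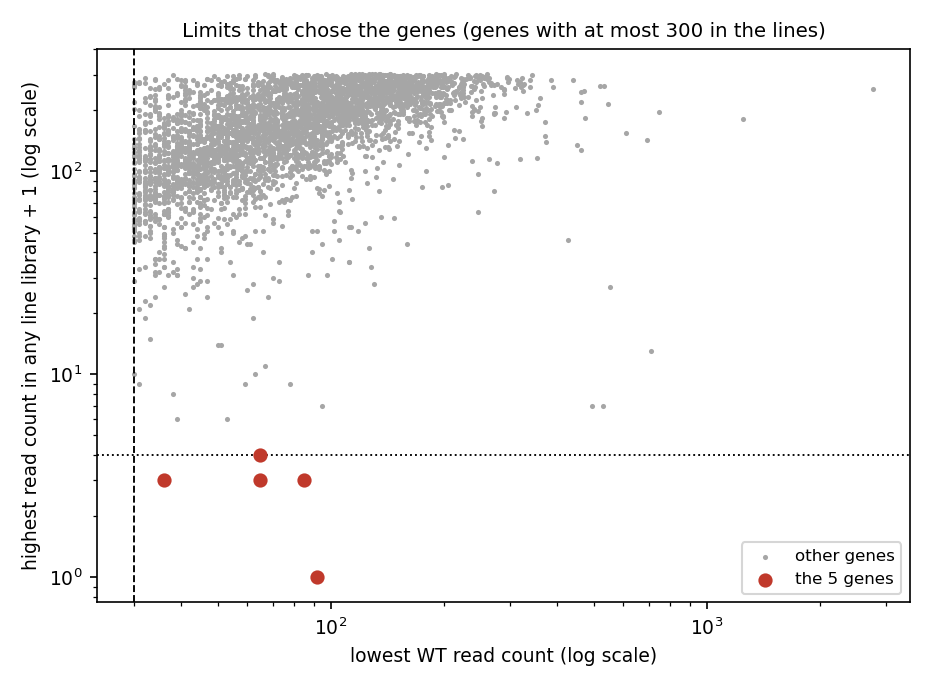
Lowest WT read count (x axis, log scale) against the highest read count in any line library plus 1 (y axis, log scale), for genes with at least 30 counts in every WT library and at most 300 in every line library. The red points are the 5 genes, which lie at or under the dotted line at 3 counts, with lowest WT counts from 36 to 92.

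*Ccrd_014300* had 92, 155 and 181 counts in WT replicates 1, 2 and 3. It had 0 counts in all 9 line libraries and was the only member without a single read in the lines. Fold bounds, here and below, set the summed WT counts, scaled by library size, against 3 counts over the libraries of a line together. They take the WT counts as exact and leave out the spread between WT replicates. The same counts chose the members, so their bounds and ratios are descriptions and may lie too high. On that scale the drop of *Ccrd_014300* was at least 169-fold for L1, at least 161-fold for L18 and at least 146-fold for L24. Its normalized count in WT was 153 ± 40.4 (SD, n = 3), which did not differ beyond that spread from the 145 ± 35.5 of *Ccrd_018562*.

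*Ccrd_018562*, the *DXS* gene, had 85, 164 and 158 counts in the WT replicates. A few reads remained in each line, 0, 1 and 0 in L1, 1, 0 and 0 in L18, and 2, 0 and 0 in L24. The lowest WT library thus had 85 counts and the highest line library 2, and each line kept its reads in 1 library only. The ratio of WT to line, scaled by library size, was 483 for L1 (95% exact counting interval 86.3 to 19100), 460 for L18 (82.0 to 18200) and 208 for L24 (57.3 to 1730). The intervals are wide because they rest on 1 or 2 line reads, and they cover counting error only. For the members they do not allow for the choice of the genes by the same counts, so the 95% need not hold.

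*Ccrd_017344*, the shortest of the genes, had 96, 98 and 65 counts in WT. L1 had 0, 0 and 0 counts, L18 had 0, 1 and 0, and L24 had 0, 0 and 3. The 3 reads in L24 replicate 3 were the highest count of any member in any line library and lay exactly at the limit. The gene was at least 103-fold lower in L1, the ratio of WT to L18 was 293 (52.0 to 11600), and that of WT to L24 was 88.4 (29.9 to 431).

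*Ccrd_024826* had 65, 88 and 87 counts in WT, against 2, 0 and 2 in L1, 1, 0 and 2 in L18, and 0, 0 and 0 in L24. It kept 7 reads in the lines, more than any other member, and all came from L1 and L18. The ratio of WT to L1 was 71.3 (27.5 to 264) and that of WT to L18 was 90.4 (30.5 to 441), while the gene was at least 81.9-fold lower in L24.

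*Ccrd_007085*, the leucine-rich repeat gene, had 36, 57 and 127 counts in WT, so replicate 3 stood far above the others. L1 had 0, 0 and 0 counts, L18 had 0, 1 and 2, and L24 had 0, 0 and 0. It lay closest to the lower WT limit, with 36 counts against the 30 required. For L1 the level was at least 87.1-fold lower and for L24 at least 75.1-fold lower, and the ratio of WT to L18 was 82.8 (28.0 to 405). With WT replicate 3 so far above the others, these bounds hold for the summed WT counts only.

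**Figure D2:**
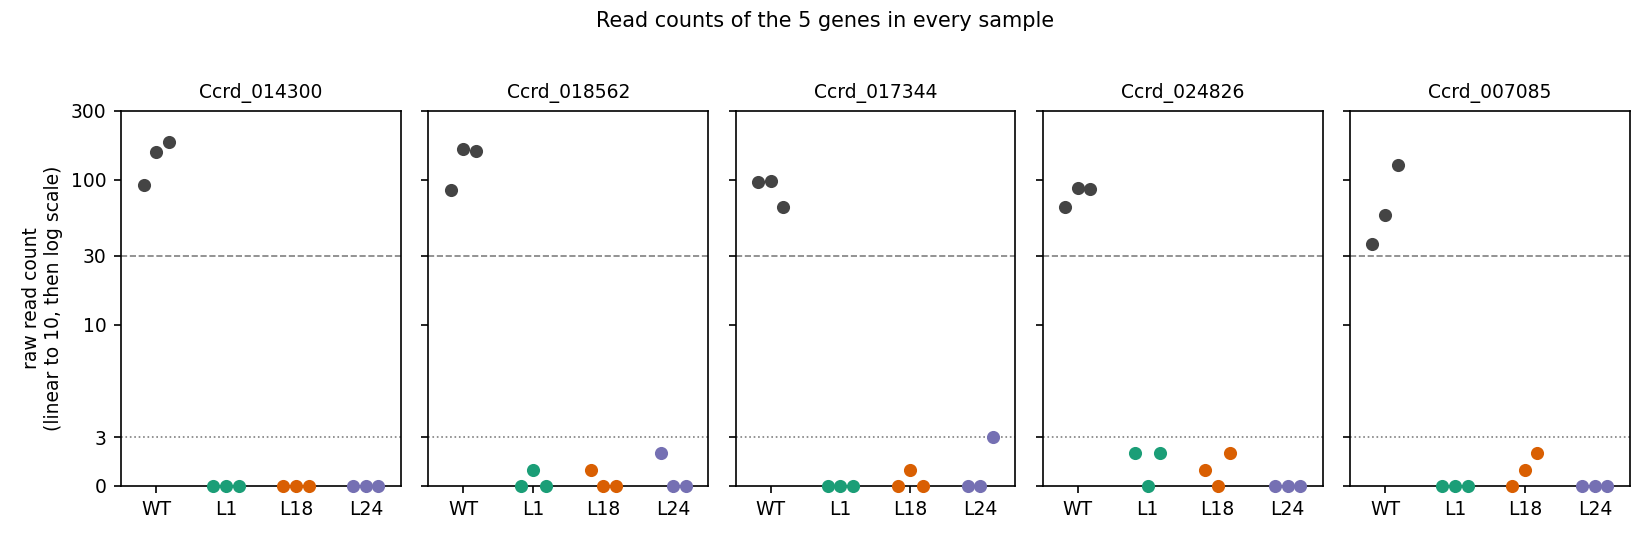
Raw read counts of the 5 genes (y axis, linear to 10 and then log scale) in each of the 3 libraries of WT, L1, L18 and L24; every point is 1 library, the dashed line marks 30 counts and the dotted line 3. WT points lie between 36 and 181 and line points between 0 and 3, so the groups do not overlap, as the rule required.

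Over the 5 genes and 9 line libraries there were 45 values, of which 34 were 0, 5 were 1, 5 were 2 and 1 was 3. The 18 reads left in the lines compare with 1554 in the 3 WT libraries. By line, L1 and L24 each kept 5 reads and L18 kept 8. L1 had 12 values at 0, L18 had 9 and L24 had 13. These sums are too small to rank the lines, and they were not compared by a test.

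In WT, 4 of the 5 genes varied more between replicates than most genes did. Their coefficient of variation over the 3 WT libraries, computed on normalized counts, was 26.4% for *Ccrd_014300*, 24.5% for *Ccrd_018562*, 25.5% for *Ccrd_017344*, 7.72% for *Ccrd_024826* and 63.3% for *Ccrd_007085*, while the median over the genes that reached 30 counts in every WT library was 13.9%. Of the genes that reached 30 counts in WT, 99.8% varied less than *Ccrd_007085*, and 22.5% varied less than *Ccrd_024826*, the steadiest of the 5. The members were themselves low in count, above 9.64% to 24.7% of these genes in normalized count. Counting error weighs more at low counts, and no comparison with genes of like level was made. *Ccrd_007085* had normalized counts of 44.1, 56.2 and 136 in WT replicates 1, 2 and 3, a range of 3.08-fold. For the other members the highest WT replicate was 1.17 to 1.72 times the lowest. In normalized counts 4 of the 5 genes were lowest in WT replicate 1 and highest in replicate 3, and *Ccrd_017344* ran the other way. Of the genes with 30 or more counts in WT, 43.0% were lowest in WT replicate 1.

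By level per length, 4 of the 5 genes were weakly expressed in WT. On the scale of fragments scaled by exon length and library size (FPKM), *Ccrd_017344* reached 21.8 ± 3.96 in WT (SD, n = 3), *Ccrd_018562* 4.64 ± 1.46, *Ccrd_014300* 3.09 ± 1.04, *Ccrd_024826* 2.84 ± 0.451 and *Ccrd_007085* 2.54 ± 1.76. The ranges of mean ± SD of the last 4 overlapped, though *Ccrd_018562* was the highest of them in each WT library. The order of the rest changed from library to library and is not resolved. The genes with 30 or more counts in every WT library had a median of 14.2 FPKM, and 4 of the members lay under the lower quartile of 5.94. *Ccrd_017344* was above 62.6% of those genes in FPKM but above 13.2% in normalized count, and its exons add up to 272 bases. For scale, the *C4H* gene *Ccrd_010165* had 848 ± 35.7 FPKM in WT.

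In the gene models, the genes ranged from 272 to 3185 bases of exon and from 1 to 10 exons. Their median exon length was 2009 bases against 1568.5 bases over the other 12994 genes that reached 30 counts in WT, and 4 of the 5 lay above that median. Their median exon number was 3 against 5, and only *Ccrd_018562*, with 10, lay above. The median distance from the start to the end of the gene was 2689 bases against 4693. Genes that can reach 30 counts were longer than all genes of the table, whose medians were 1294 bases and 4 exons, and the 5 genes are described beside the first of these groups for that reason.

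*Ccrd_014300* was the longest, at 3185 bases in 5 exons, and 88.4% of the genes compared were shorter. Its first exon held 2471 of these bases, and its longest intron had 2267. *Ccrd_018562* spread 2009 bases over 10 exons of 21 to 353 bases, which made up 30.5% of its span of 6587 bases. *Ccrd_020343*, the other gene described as a *DXS*, also had 10 exons. *Ccrd_024826* had 1939 bases in 3 exons of 1518, 35 and 386 bases. *Ccrd_007085* was a single exon of 2025 bases, a form shared by 11.4% of the genes compared. *Ccrd_017344* was an unusual model, with exons of 226, 37 and 9 bases in a span of 2472 bases, and only 0.654% of the genes compared were shorter. Whether the read counts of so small a model represent a whole transcript was not tested.

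**Figure D3:**
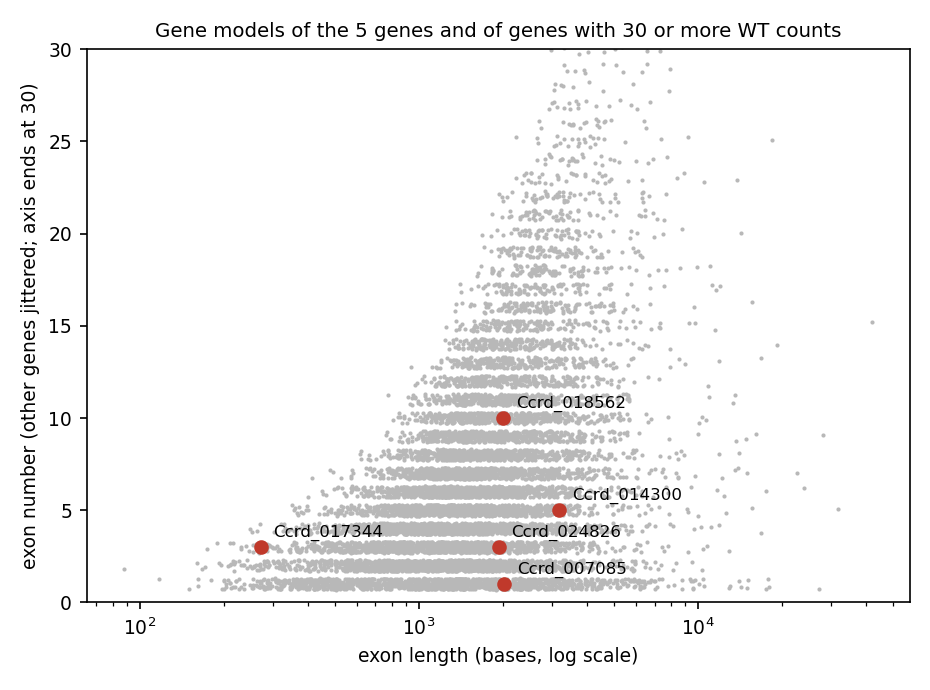
Exon length in bases (x axis, log scale) against exon number (y axis) for the 5 genes in red and for the genes with 30 or more counts in every WT library in grey. *Ccrd_017344*, at 272 bases and 3 exons, lies at the short edge, and *Ccrd_018562*, at 2009 bases and 10 exons, is the only one above the median of 5 exons.

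No 2 of the 5 genes shared a scaffold, and in the order of the identifiers the gaps between one member and the next ranged from 1218 to 7215. The scaffolds of *Ccrd_018562*, *Ccrd_024826* and *Ccrd_017344* hold only 1, 3 and 5 genes, which leaves little room to share one. Whether the members lie near one another on a chromosome was not tested. In the coordinates of the CcrdV1 assembly, *Ccrd_014300* lay on scaffold 1 from 1004492 to 1012431 on the plus strand, in position 83 of 132 genes. *Ccrd_018562* was the only gene annotated on scaffold 3464, from 10205 to 16791 on the minus strand. *Ccrd_017344* lay on scaffold 1591 from 98774 to 101245 on the plus strand, the last of 5 genes. *Ccrd_024826* lay on scaffold 2169 from 41745 to 44433 on the minus strand, the first of 3 genes. *Ccrd_007085* lay on scaffold 62 from 621744 to 623768 on the plus strand, the last of 68 genes. Thus 4 of the 5 were the first, the last or the only gene of their scaffold, a position held by 23.4% of the 12994 genes compared.

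The genes beside the members were not used to choose them, and their counts were tested in the fit over all genes. Of the 5 nearest genes on the same scaffolds 4 could be tested, and 2 were lower in L1, 1 in L18 and 2 in L24. Within 5 gene positions 16 of 21 genes could be tested, and 6 were lower in L1, 4 in L18 and 7 in L24, beside 20.4%, 12.8% and 20.7% of all genes tested. The 4 that were lower in every line were *Ccrd_017340*, *Ccrd_017341*, *Ccrd_017343* and *Ccrd_007087*, so they lay beside 2 of the 3 members that had a tested neighbour.

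*Ccrd_014300* lay among expressed genes of which few were called. Its nearest neighbour on the right, *Ccrd_014299*, had 636, 1017 and 1130 counts in WT, 1470, 1598 and 775 in L1, 1183, 799 and 1415 in L18, and 561, 834 and 681 in L24. These groups overlapped, and against WT L1 had a log2 fold change of 0.21 ± 0.22 (SE), L18 of 0.12 ± 0.22 and L24 of -0.43 ± 0.22, none of them called. On the left, *Ccrd_014301* had 13, 51 and 27 counts in WT and 81, 139 and 49 in L1, and was called higher in L1 (log2 fold change 1.30 ± 0.40, adjusted p = 0.02). That call was lost without WT replicate 1 (adjusted p = 0.0719), without WT replicate 3 (0.0606) or without L1 replicate 2 (0.0844). Of the 8 tested genes within 5 positions, 0 were lower in L1, 0 in L18 and 2 in L24. Those 2 were *Ccrd_014305*, with a log2 fold change of -0.70 ± 0.22 (adjusted p = 0.0217), and *Ccrd_014302*, with -0.46 ± 0.18 (adjusted p = 0.0486). The first call was lost under 6 of 21 alternatives, among them those without WT replicate 2 (adjusted p = 0.0736), without WT replicate 3 (0.0959), without L24 replicate 1 (0.0672) and without L24 replicate 3 (0.0632). The second was lost under 15 of 21, with adjusted p-values from 0.0166 to 0.157 over all of them.

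*Ccrd_017344* lay at the end of a scaffold on which the 4 other genes were lower in at least 1 line as well, though by far less. The nearest, *Ccrd_017343*, 46505 bases away, had 552, 802 and 800 counts in WT, 365, 529 and 270 in L1, 305, 224 and 342 in L18, and 435, 515 and 498 in L24. Every line library was below every WT library, with a log2 fold change of -1.14 ± 0.16 for L1 (adjusted p = 7.61e-05), -1.48 ± 0.16 for L18 (1.92e-05) and -0.59 ± 0.16 for L24 (0.00821). The call in L24 was lost with limma on log2(FPKM + 1) (adjusted p = 0.103) and on log2(FPKM + 0.1) (0.108). *Ccrd_017341*, described by an AIG1-type G domain, had log2 fold changes of -1.53 for L1, -1.33 for L18 and -1.44 for L24, all called. *Ccrd_017340*, a superoxide dismutase, one of the enzymes that remove superoxide radicals, had -1.38, -1.30 and -1.15, all called. *Ccrd_017342* was called lower only in L1, where its log2 fold change was -1.08 ± 0.18, beside -0.40 ± 0.18 for L18 and -0.37 ± 0.18 for L24, and its effect was smaller in L18 and L24 than in L1 by the test of the difference (adjusted p = 0.00987 and 0.0124). Medians were also taken over the 100 genes nearest by identifier, counting only tested genes with a mean log2 CPM above 3 and no members. Around *Ccrd_017344*, the median log2 fold change was -0.31 for L1, -0.30 for L18 and -0.36 for L24, and around *Ccrd_014300* it was -0.03, 0.12 and -0.47. In the same order of lines, the median was -0.09, -0.07 and -0.47 around *Ccrd_018562*, -0.001, 0.05 and -0.02 around *Ccrd_024826*, and 0.16, -0.10 and -0.20 around *Ccrd_007085*.

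**Figure D4:**
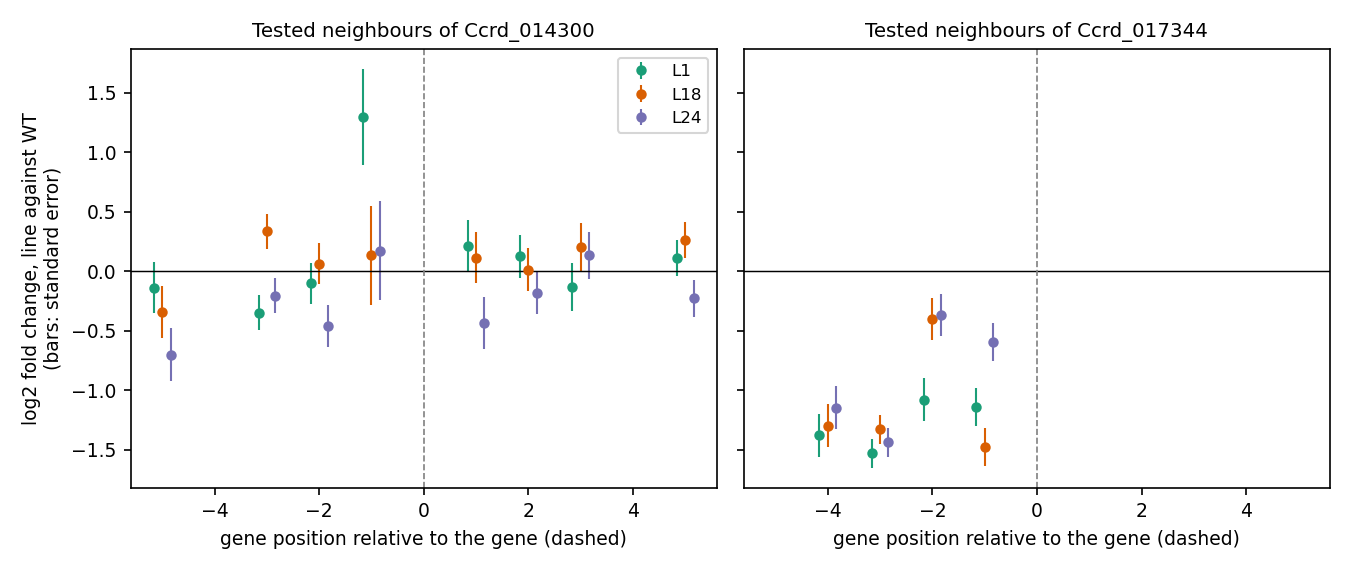
Log2 fold change of each line against WT (y axis, points with standard error bars) for the tested genes within 5 gene positions of *Ccrd_014300* (left) and *Ccrd_017344* (right), by position on the scaffold (x axis). The 4 genes beside *Ccrd_017344* lie below 0 in every line, from -0.37 to -1.53, while those beside *Ccrd_014300* range from -0.70 to 1.30.

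The remaining pair could not be placed among expressed neighbours. *Ccrd_018562* has no other gene on its scaffold. The genes next to *Ccrd_024826* on scaffold 2169 were not tested, as *Ccrd_024827* had 0 counts in all 12 libraries and *Ccrd_024828* had 0 to 2.

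The leucine-rich repeat descriptions come from a list of genes changed in L1, so a change in L1 was fixed by that choice. Each line was compared with the same WT libraries, and neighbours without a description could not be assigned to a family. By those descriptions, 5 other leucine-rich repeat genes lay within 5 identifiers of *Ccrd_007085*. All of them were called lower in L1 and L24, and 2 of them in L18. *Ccrd_007086* and *Ccrd_007087* share its scaffold 62, while *Ccrd_007081*, *Ccrd_007083* and *Ccrd_007084* lie on scaffold 78. The nearest neighbour of *Ccrd_007085* on scaffold 62 was *Ccrd_007086*, 2853 bases away and described by an LRRNT_2 domain. It had 5, 2 and 29 counts in WT, 1, 0 and 0 in L1, 2, 4 and 3 in L18, and 0, 0 and 0 in L24. The groups WT and L18 overlapped, and most WT reads came from replicate 3, the same library in which *Ccrd_007085* was highest. The ratio of WT to L1 was 42.8 (7.20 to 1740) and the call in L1 (adjusted p = 0.0108) was lost without WT replicate 3 (adjusted p = 0.0805).

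*Ccrd_007087*, the next LRRNT_2 gene on the scaffold, had 98, 111 and 199 counts in WT, 1, 3 and 1 in L1, 22, 25 and 30 in L18, and 3, 5 and 3 in L24. No line library reached the WT level, and L18 lay between WT and the other lines. The ratio of WT to line was 96.9 (41.2 to 300) for L1, 5.98 (4.68 to 7.74) for L18 and 38.0 (21.0 to 76.7) for L24, with adjusted p-values of 2.46e-07, 6.68e-05 and 7.11e-07.

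The identifiers continue from *Ccrd_007085* at the end of scaffold 62 to *Ccrd_007084* at the start of scaffold 78, from 662 to 3028. Whether these scaffold ends adjoin in the genome was not tested. *Ccrd_007084*, a single-exon LRRNT_2 gene, had 101, 191 and 187 counts in WT, 7, 6 and 3 in L1, 26, 36 and 28 in L18, and 1, 0 and 1 in L24. It had the same order of groups as *Ccrd_007087* except that L24 was lowest. The ratio of WT to line was 35.6 (21.7 to 62.7) for L1, 6.01 (4.79 to 7.62) for L18 and 245 (67.5 to 2030) for L24, with adjusted p-values of 3.11e-07, 4.12e-05 and 1.31e-07.

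Farther along scaffold 78, the leucine-rich repeat gene *Ccrd_007081* had 68, 71 and 124 counts in WT, 14, 14 and 10 in L1, 71, 80 and 90 in L18, and 12, 16 and 14 in L24. L18 lay within the WT range and the other lines below it, and the log2 fold change of L1 was -3.02 ± 0.32, that of L24 -2.67 ± 0.32 and that of L18 -0.30 ± 0.27, which was not called (adjusted p = 0.469). The difference between L18 and L1 passed the test (adjusted p = 2.54e-05), as did that between L24 and L18 (8.91e-05). *Ccrd_007083*, of the same description, was lower in L1 (-2.20 ± 0.36) and L24 (-1.09 ± 0.33), and had -0.51 ± 0.32 in L18, which was not called. The call of *Ccrd_007083* in L24 (adjusted p = 0.0189) was lost without WT replicate 3 (0.0599), without L24 replicate 2 (0.0605) and without L24 replicate 3 (0.0857). *Ccrd_007082*, uncharacterized, was lower in all lines, with log2 fold changes of -1.62 for L1, -1.04 for L18 and -2.66 for L24. *Ccrd_007080*, a PDZ domain protein, had -1.79, -0.67 and -2.51, and its call in L18 (adjusted p = 0.044) was lost under 13 of the alternatives, with adjusted p-values up to 0.131.

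Of the 9 tested genes within 5 identifiers of *Ccrd_007085*, L1 had 7 lower, L18 had 4 and L24 had 7, with median log2 fold changes of -2.20, -0.67 and -2.66. Over the corresponding 25 tested genes beside the other members, 7 were lower and 4 higher in L1, 5 lower and 1 higher in L18, and 9 lower and 3 higher in L24. Over all genes tested 20.4%, 12.8% and 20.7% were lower. The list by identifier was added after the values had been seen, and it gets no test of its own. Not every gene of that list was called lower, since *Ccrd_007089*, at 2 to 8 counts in WT, was not called in any line and *Ccrd_007090* was higher in L18 (log2 fold change 2.69 ± 0.62, adjusted p = 0.00594). Leucine-rich repeat genes that are similar in sequence can share or lose reads in counting, so single counts within this group are uncertain.

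**Figure D5:**
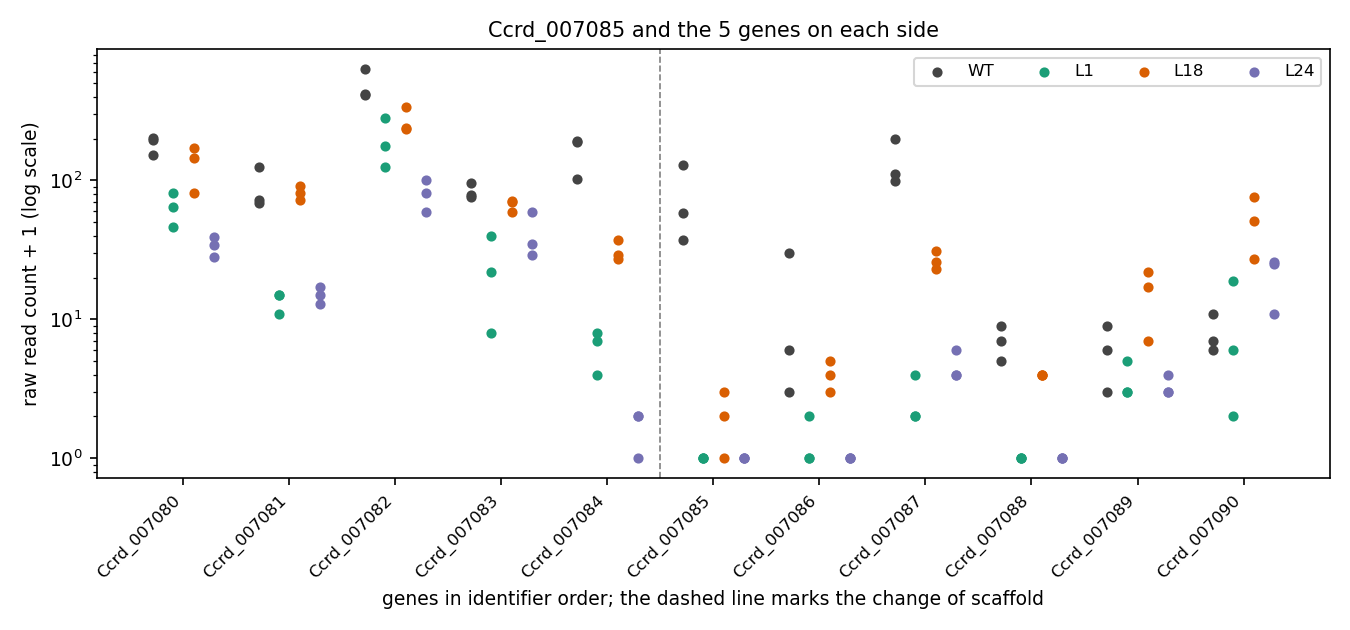
Raw read counts plus 1 (y axis, log scale) of *Ccrd_007085* and the 5 genes on each side of it in identifier order (x axis), with every point 1 library of WT, L1, L18 or L24. *Ccrd_007084* and *Ccrd_007087* had 98 to 199 counts in WT and 0 to 7 in L1 and L24, with L18 at 22 to 36 counts between them.

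Of the descriptions that the members carry, the *DXS* description was shared by *Ccrd_020343* on scaffold 209. It had 20, 6 and 8 counts in WT, 2, 0 and 0 in L1, 2, 7 and 2 in L18, and 1, 0 and 3 in L24. WT and L18 overlapped, while L1 and L24 lay below every WT library. The ratio of WT to line was 20.2 (5.18 to 173) for L1, 3.49 (1.73 to 7.64) for L18 and 8.70 (3.10 to 33.8) for L24, with adjusted p-values of 0.0086, 0.139 and 0.0243. The call in L24 was lost without WT replicate 1 (adjusted p = 0.127), without L24 replicate 1 (0.0652) and without L24 replicate 2 (0.0779). In WT, *Ccrd_020343* was at 0.318 FPKM, below the 4.64 FPKM of *Ccrd_018562*. These were the only genes of that description in the list used. That list holds genes changed in L1 and is incomplete, so the L1 call of *Ccrd_020343* was fixed by that choice. Other *DXS* genes of cardoon were not analysed here.

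*Ccrd_018562* was listed under thiamine biosynthesis together with *Ccrd_011240*, a chloroplastic thiamine thiazole synthase, which makes the thiazole part of thiamine. The study made that listing from genes it had called changed in all lines, so a call of *Ccrd_011240* in each line was fixed by that choice. *Ccrd_011240*, which lies in one of the runs left out, had 26018, 26120 and 20046 counts in WT, 11647, 12989 and 8966 in L1, 16189, 14411 and 9709 in L18, and 15707, 6807 and 9831 in L24. All line libraries were below all WT libraries, and the log2 fold changes were -1.34, -1.03 and -1.22, with adjusted p-values of 0.00124, 0.0112 and 0.00236. It kept a high level in the lines, unlike *Ccrd_018562*.

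Of 28 genes described by leucine-rich repeats in the same list, 19 were lower and 8 higher in L1, 4 lower and 4 higher in L18, and 17 lower and 4 higher in L24. These counts include *Ccrd_007085*, and the share of all genes tested that was lower was 20.4%, 12.8% and 20.7%. The identifiers around *Ccrd_007085*, on scaffolds 62 and 78, gave 6 of the 28, namely *Ccrd_007085* itself, *Ccrd_007081*, *Ccrd_007083*, *Ccrd_007084*, *Ccrd_007086* and *Ccrd_007087*. Of the other 22, L1 had 13 lower and 8 higher, L18 had 1 lower and 4 higher, and L24 had 11 lower and 4 higher. The calls in L1 were fixed by how the list was made, and L24 was compared with the same WT libraries.

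A few genes lay just outside the limits. *Ccrd_008223*, an aquaporin-like protein of the family of water channels, had 34, 31 and 27 counts in WT and 0 in all 9 line libraries, and missed the WT limit in 1 library. *Ccrd_007324*, a NAC domain protein of a family of plant transcription factors, had 41, 39 and 49 counts in WT and at most 5 in the lines. *Ccrd_024434*, a protein kinase, had 53, 66 and 93 in WT and also at most 5 in the lines. Just inside were *Ccrd_007085*, with a lowest WT count of 36, and *Ccrd_017344*, with a highest line count of 3. Another 10 genes had highest line counts of 6 to 10, and among them were genes far more abundant in WT than the members. The GDSL lipase gene *Ccrd_008518* had 525, 496 and 503 counts in WT and 0 to 6 in the lines, and the sulfotransferase gene *Ccrd_025377* had 528, 558 and 840 in WT and 0 to 6 in the lines. The limit of 3 counts does not scale with the level in WT, so genes of that kind fell outside it.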

How the data were processed

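In the deposited count table each value is a raw, unscaled read count per cardoon gene, made by the authors after trimming with BBDuk (minimum length 35, quality 35) and alignment to CcrdV1 with STAR; in the deposited FPKM table the authors divided the counts by exon length and library total. Coordinates, exons and strands are those of the count table. The members and lists were chosen with earlier results of these data known. Counts were scaled by TMM factors (0.854 to 1.10), and normalized counts are per library of mean effective size. A filter rewritten from the Jaccard rule of HTSFilter kept 20024 genes above 10.5 normalized counts. edgeR 4.0.16 fitted all 12 samples by quasi-likelihood, with p-values adjusted by Benjamini-Hochberg across the tested genes and a call at 0.05 or less; the script was tested on simulated data. Python 3.11.15 with pandas 2.3.3 and scipy 1.17.1 gave the rest, and DESeq2 1.42.0 and limma 3.58.1 served alternatives. A bound of at least N-fold sets WT against 3 counts over a line's libraries together, and ratios carry exact 95% intervals of the summed counts. Both leave out the spread between replicates and, for the members, the choice of the genes by these same counts.

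Values in every sample were given for all members. Neighbours were named where called in all lines; the other neighbours, the genes around *Ccrd_007085* in identifier order and 2 genes with 6 line counts were chosen after their values were seen. Descriptions came from a shortened list of 3630 genes changed in L1. No gene names or sequences could be matched in the reference table used here. Alternatives changed the count limits, normalization, filter, test, reference genes and neighbour lists, added a replicate block, and left out each replicate; the replicates of a group may be technical, so p-values measure the spread between these samples.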

Additional observations from a re-analysis of the deposited data

Results flagged for a closer look

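The effect against WT differed between lines, by the test of that difference in the same edgeR quasi-likelihood fit, for 12 of the 19 genes named beside the members or sharing a description or listed process with one, in 22 of 57 comparisons between lines. The share over all genes tested was not counted for comparisons between lines, so these counts have no background to be set against. Some of the 19 genes were also chosen after their values were seen. All values below are differences of log2 fold changes. In 7 of the genes around *Ccrd_007085* the effect in L18 was above that in L1: by 1.12 for *Ccrd_007080*, 2.72 for *Ccrd_007081*, 1.69 for *Ccrd_007083*, 2.55 for *Ccrd_007084*, 3.93 for *Ccrd_007087*, 2.44 for *Ccrd_007089* and 2.83 for *Ccrd_007090*. The effect in L24 lay under that in L18 in 6 genes near *Ccrd_007085* by identifier, with -1.84 for *Ccrd_007080*, -2.37 for *Ccrd_007081*, -1.62 for *Ccrd_007082*, -5.14 for *Ccrd_007084*, -2.63 for *Ccrd_007087* and -2.44 for *Ccrd_007089*. Between L24 and L1 the difference was -1.04 for *Ccrd_007082*, 1.11 for *Ccrd_007083* and -2.59 for *Ccrd_007084*. Beside *Ccrd_017344*, the effect on *Ccrd_017343* in L24 exceeded that in L1 by 0.55 and that in L18 by 0.89, so that it fell least in L24, and the effect on *Ccrd_017342* in L18 and in L24 exceeded that in L1 by 0.68 and 0.71. Beside *Ccrd_014300*, the effect on *Ccrd_014301* in L18 differed from that in L1 by -1.16, and the effect on *Ccrd_014302* in L24 differed from that in L18 by -0.53. The 5 members cannot be compared between lines in this way, since at most 3 reads per library remained.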

How the results depend on the processing

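The 5 members depend on the count limits. A WT minimum of 20 gave 9 genes and one of 100 gave 0, a line maximum of 0 or of 1 gave 1 gene (*Ccrd_014300*) and one of 10 gave 17, and limits in FPKM (at least 1 in WT, at most 0.05 in the lines) gave 3, of which 1 was a member. Leaving out single replicates gave 5 to 7 genes, with the 7 found without WT replicate 3. All 5 members stayed each time, which the rule fixes, since leaving out a library can only loosen its limits. Counts scaled to equal library size gave 4, without *Ccrd_017344*. Of the nearest neighbours, 2, 1 and 2 were lower in L1, L18 and L24; filterByExpr gave 1 in L1 and 1 in L24, limma on log2(FPKM + 1) 1 in L1 and 0 in L24, and limma on log2(FPKM + 0.1) 1 in L24. Within 5 positions there were 6, 4 and 7, and the nearest by identifier gave 3 in L18 and 5 in L24. With alternatives chosen after seeing the data, 5 genes on each side by identifier gave 14, 9 and 16, and leaving out the neighbours of *Ccrd_007085* gave 1 in L1 and 1 in L24. Without single replicates the nearest neighbours called lower were 1 to 2, 1 to 1 and 2 to 2, the 1 in L1 without WT replicate 3. Against all genes 2 members, not 1, had more exons than the median. Genes called without single replicates ranged from 6334 to 8333 in L1, 3559 to 5362 in L18 and 6302 to 8415 in L24. With the replicate block 7644, 4733 and 7688 genes were called, beside 7946, 5071 and 7998, and 2, 1 and 2 neighbours. Of 18 same-numbered pairs of replicates from different groups, 3 correlated above 0.1 (r from -0.226 to 0.304). Pairs of unlike number were not compared, so whether the numbers link samples was not tested. No called direction turned under any alternative run. Where calls were lost, the cause was not tested, and counts of 0 to 3 limit every value in the lines.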
